A study of Mus musculus with 9 samples.

Results

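The early lymphoid priming genes are a set of 10 genes (Il7r, Dntt, Rag1, Satb1, Ikzf1, Mef2c, Tcf3, Lsp1, Cd52 and Ltb) that multipotent blood progenitors begin to transcribe before they commit to the B or T cell lineage. They were chosen by name, with earlier results of these data known, and each probe set annotated with only 1 of these symbols was taken. All 10 genes were found, on 21 of the 22626 probe sets of the array, and each is one of 12393 genes measured. RNA came from bone marrow KSL cells of mice on a C57BL/6 background, sorted as c-Kit+, Sca-1+, Lin- and IL7Ra-, with 1 Affymetrix array for each of 3 biological replicates per group. Control mice were Runx1floxed/floxed MxCre-/-, and Runx1KO mice were Runx1floxed/floxed MxCre+/-. In the latter the interferon-inducible Mx promoter drives the Cre recombinase that deletes the floxed gene. Both were sampled 3 months after poly IC, which induces interferon, so the controls received it too. RUNX1(41-214) cells were transduced with a retroviral vector for residues 41 to 214 of the transcription factor RUNX1 and taken 4 months after transplantation. The labels of that group name no poly IC and no floxed allele, and no transplanted cells with an empty vector are among the 9 arrays, so the fragment cannot be told apart from transduction, transplantation or the absence of poly IC.

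Lymphoid priming is the low-level transcription of lymphoid genes in multipotent progenitors, strongest in the Flt3-high, lymphoid-primed fraction of KSL cells. Transcription factors such as Ikaros, E2A, Mef2c and Satb1 act early in it. The interleukin 7 receptor then supports survival and growth of lymphoid progenitors, and the recombinase Rag1 and the terminal transferase Dntt begin to rearrange and diversify the antigen receptor genes. The sort removed cells with IL7Ra, the protein made from Il7r, from the surface, so Il7r mRNA was measured only in cells below that gate.

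The targeted gene, Runx1, was at 1701, 931 and 1475 in control replicates 1 to 3, at 2417, 3476 and 2563 in Runx1KO and at 1815, 1958 and 2093 in RUNX1(41-214). It was not lower in Runx1KO on this probe set, whose place relative to the deleted part of the gene is not known here, so it does not check the deletion. The 9 arrays had median signals of 125 to 147. The ratio of 3′ to 5′ Gapdh control signal, a sign of RNA integrity, was 1.85 (log2) in control replicate 2, 2.13 in Runx1KO replicate 3 and 0.98 to 1.29 in the other 7. Without these 2 arrays Il7r, Dntt, Rag1, Ltb and Cd52 passed with the fragment against control (adjusted p up to 0.0285). Il7r, Dntt and Rag1 passed against Runx1KO (up to 0.0215). The share of all genes that passed in that fit is not given here. Kit, the stem cell factor receptor used in the gate, was bright on every array (1981 to 3783), and Ly6a, which encodes Sca-1, was not measured here. Defining T cell genes were dim, with Cd3e at 3.16 to 24.6 and Cd4 at 4.03 to 19.0, as were the B cell genes Ms4a1 (21.2 to 36.7) and Cd22 (15.99 to 64.94), but Cd79b, a B cell receptor signalling chain, was at 431 to 689 on every array. In bulk RNA, fewer cells that express a gene and less RNA per cell cannot be told apart. P-values rest on the spread between the 3 arrays within each group, pooled over the 3 groups and moderated across genes.

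Set against control, KSL cells with RUNX1(41-214) had less mRNA of the lymphoid effector genes Il7r, Dntt and Ltb and more of Cd52. The 4 transcription factors of the set did not pass the test, and of these Ikzf1 was too dim for a change to be detected. Of the 10 genes 3 fell and 1 rose at an adjusted p under 0.05, where 4.28% of all genes passed (2.56% lower, 1.73% higher). In 6 of the 10 the arrays of both groups did not overlap (5 lower and 1 higher), which held for 20.3% of all genes (10.2% lower, 10% higher). The median log2 fold change of the 10 genes was -0.41, against 0.02 over all genes. Because the genes were chosen with earlier results known, these shares describe the set and do not test it. In Runx1KO against control 0 of the 10 passed in limma, where 0.347% of all genes did (0.113% lower, 0.234% higher) and 895 genes had an unadjusted p under 0.05. Of the 10, 1 (Cd52) had an unadjusted p under 0.05, the count stayed at 0 in all 23 alternative fits, and the median was 0.08 against -0.00 over all genes. The arrays of Runx1KO and control overlapped in each of the 10 genes, so that 0 stood clear, against 10.5% of all genes (5.2% lower, 5.34% higher). That a gene was not called does not show that it was equal. The intervals below give the sizes allowed by the brightest probe set of each gene, and other probe sets can differ. RUNX1(41-214) and Runx1KO cells were also compared directly: 3 of 10 fell (Il7r, Dntt and Rag1), where 1.36% of all genes passed (1.06% lower, 0.299% higher). Here 5 of 10 did not overlap (4 lower and 1 higher), against 18.8% of all genes (9.13% lower, 9.67% higher). The 2 comparisons with control share the 3 control arrays.

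**Figure D1:**
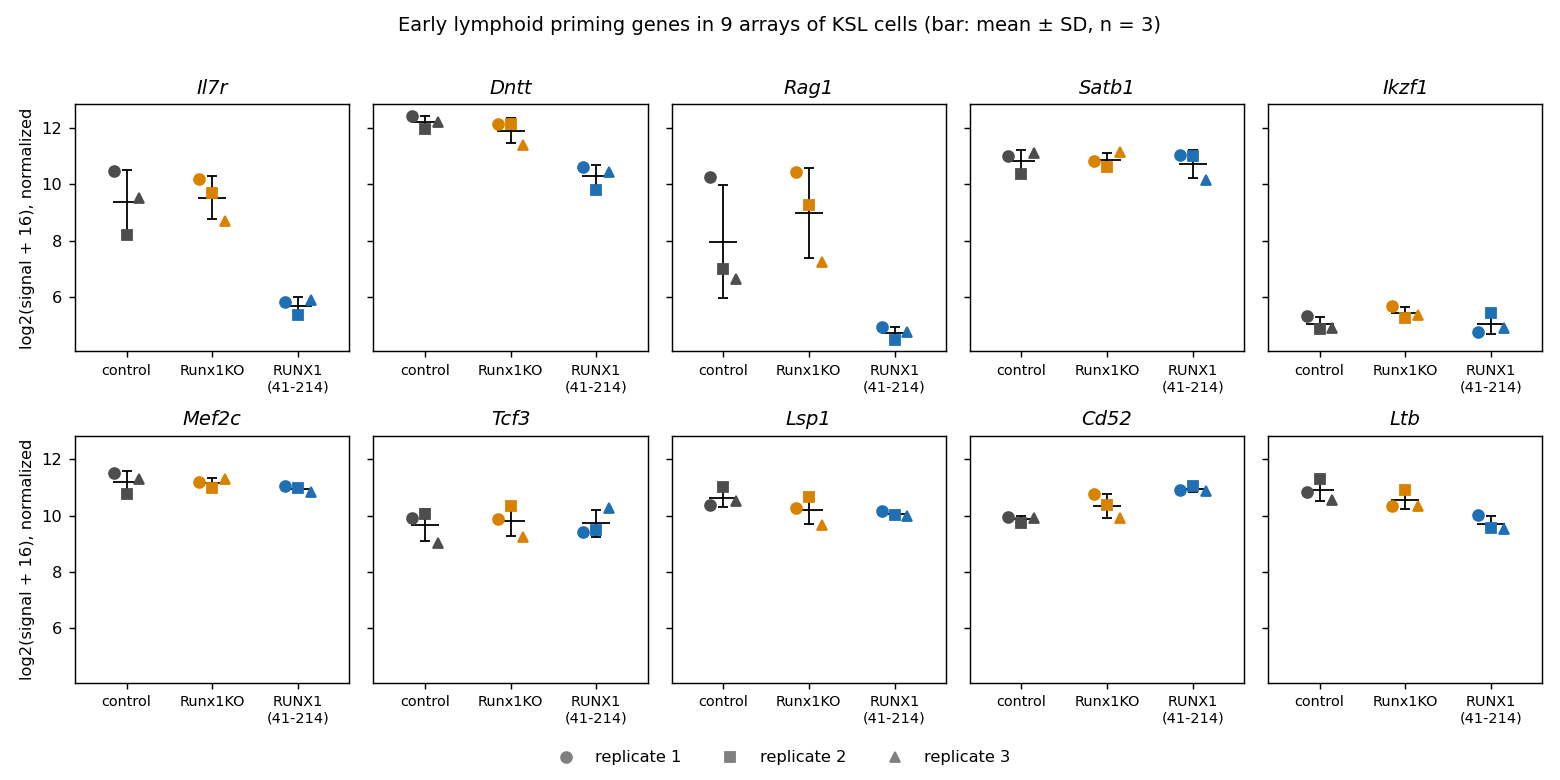
Normalized log2(signal + 16) of each of the 10 genes (vertical axis) in each array, by group (horizontal axis), with symbols for replicate numbers and bars for mean ± SD (n = 3). The RUNX1(41-214) arrays lie below all others for Il7r, Dntt, Rag1 and Ltb and above all others for Cd52.

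The promoter windows of the 4 genes whose fragment arrays lay below every other array are shown to place them beside the motif that the Runt domain binds. Sequences are RefSeq windows of mouse assembly GRCm38.p6, from 250 bases before to 50 after a gene's annotated start, 5′ to 3′ on the gene's strand. They lie at chr15:9529827-9530126 (minus strand) for Il7r, chr19:41029025-41029324 (plus) for Dntt, chr2:101649483-101649782 (minus) for Rag1 and chr17:35194257-35194556 (plus) for Ltb. Capitals mark the RUNX core TGTGGT or TGCGGT, searched on both strands.
Il7r: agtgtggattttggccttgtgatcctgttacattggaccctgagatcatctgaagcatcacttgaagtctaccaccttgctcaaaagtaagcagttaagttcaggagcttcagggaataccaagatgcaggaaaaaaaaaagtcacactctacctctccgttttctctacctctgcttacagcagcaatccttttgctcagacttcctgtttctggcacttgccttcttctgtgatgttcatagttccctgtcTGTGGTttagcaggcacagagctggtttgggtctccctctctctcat
Dntt: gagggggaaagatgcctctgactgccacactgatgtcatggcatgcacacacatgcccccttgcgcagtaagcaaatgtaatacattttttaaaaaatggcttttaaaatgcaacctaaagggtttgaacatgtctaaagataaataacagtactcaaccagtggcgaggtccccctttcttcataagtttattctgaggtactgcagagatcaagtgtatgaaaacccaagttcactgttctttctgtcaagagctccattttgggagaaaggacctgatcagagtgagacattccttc
Rag1: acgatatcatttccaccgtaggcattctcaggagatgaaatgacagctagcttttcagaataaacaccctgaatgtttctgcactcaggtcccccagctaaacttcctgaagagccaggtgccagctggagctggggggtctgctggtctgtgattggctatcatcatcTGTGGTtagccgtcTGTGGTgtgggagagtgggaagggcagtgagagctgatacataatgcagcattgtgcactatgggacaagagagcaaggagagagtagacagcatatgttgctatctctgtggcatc
Ltb: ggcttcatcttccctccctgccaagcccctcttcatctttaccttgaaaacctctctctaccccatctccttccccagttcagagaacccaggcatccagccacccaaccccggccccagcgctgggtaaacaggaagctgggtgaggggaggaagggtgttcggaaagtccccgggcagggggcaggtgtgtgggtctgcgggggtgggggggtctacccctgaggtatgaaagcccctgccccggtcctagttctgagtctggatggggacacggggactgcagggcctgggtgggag
Il7r held 1 match, just after the start (bases 4 to 9), and Rag1 held 2, at bases -81 to -76 and -67 to -62. Dntt and Ltb held none of these letters in the window. Of 32851 RefSeq windows of 300 bases, 22.4% held at least 1 match. Among the 15 windows found for 8 of the 10 genes, those of Il7r and Rag1 were the 2 with a match. The E-box letters CAGGTG or CAGCTG, which E proteins bind, occur in 32.9% of all windows. They were found in the windows of Rag1 (2 matches), Ltb (1) and Satb1. The Ikaros core TGGGAA occurs in 25.6% of all windows and was found in those of Rag1 and Satb1.

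Il7r encodes the alpha chain of the interleukin 7 receptor. Its deposited signal was 1399.9, 279.5 and 706 in control replicates 1 to 3, 1179, 855 and 379.55 in Runx1KO, and 37.3, 24.6 and 43.8 in RUNX1(41-214). All 3 arrays with the fragment were lower than each of the other 6, and the ranges of control and Runx1KO overlapped. On the log2 scale used for the tests, log2(signal + 16), it was at 9.38 ± 1.14 in control, 9.52 ± 0.76 in Runx1KO and 5.69 ± 0.29 in RUNX1(41-214) (SD, n = 3 each). Against Runx1KO the fragment group was 14.2-fold lower (log2 fold change -3.83 ± 0.51, SE, adjusted p = 0.00312), and against control it was 12.9-fold lower (-3.69 ± 0.51, adjusted p = 0.00150). Both calls held in all 23 alternatives (adjusted p up to 0.0221 and 0.0106). The offset of 16 pulls low signals together, so these folds are understated. Without control replicate 2 and Runx1KO replicate 3, each the lowest of its group, the fall from control was 4.28 on the log2 scale. Runx1KO minus control was 0.14 ± 0.51, with a 95% confidence interval of -0.97 to 1.25, and its sign turned without control replicate 2 (-0.46) or without Runx1KO replicate 1 (-0.19).

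Dntt encodes terminal deoxynucleotidyl transferase, which adds untemplated bases at the joints of rearranged antigen receptor genes. Its signal was 5488, 3945 and 4464 in control, 4721, 4585 and 2550.45 in Runx1KO, and 1547, 857 and 1339 in RUNX1(41-214). The fragment group lay below the other 2 groups on every array, while only Runx1KO replicate 3 lay below the control range. Dntt was 3.08-fold lower in RUNX1(41-214) than in Runx1KO (-1.62 ± 0.24, adjusted p = 0.00552) and at 26.3% of the control level (-1.93 ± 0.24, adjusted p = 0.000713), again in all 23 alternatives. Runx1KO minus control was -0.30 ± 0.24 (95% confidence interval -0.82 to 0.22).

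Rag1 encodes the catalytic subunit of the V(D)J recombinase. Its signal was 1206, 115 and 88.2 in control, 1397, 627 and 135 in Runx1KO, and 13.55, 6.27 and 10.75 in RUNX1(41-214). The arrays with the fragment were the lowest 3 of the 9, but control replicate 1 and Runx1KO replicates 1 and 2 stood far above the rest of their groups. The SD on the log2 scale was 1.99 in control and 1.60 in Runx1KO, against 0.23 in RUNX1(41-214). Rag1 passed against Runx1KO (-4.27 ± 0.89, adjusted p = 0.0395) and not against control (-3.25 ± 0.89, adjusted p = 0.0693). The first was lost in 10 of 23 alternatives, among them those without RUNX1(41-214) replicate 1, 2 or 3 or Runx1KO replicate 1 or 2 (adjusted p over all alternatives 0.00353 to 0.164). The second passed in 8 of 23 (0.0120 to 0.210), with an adjusted p of 0.0366 without Runx1KO replicate 3, 0.0285 without the 2 arrays of high Gapdh ratio and 0.0130 with the replicate number as a block. Runx1KO minus control was 1.01 ± 0.89, with an interval of -0.93 to 2.96, and ran from 0.29 without Runx1KO replicate 1 to 2.16 without control replicate 1.

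Genes of early B cell development are set beside Rag1 as a description, Rag2 and Cd79a having been chosen after their values were seen. The 3 highest arrays of Rag1, control replicate 1 and Runx1KO replicates 1 and 2, were also the highest for Il7r, Ebf1 and these 2 genes. Ebf1, the transcription factor that starts the B cell programme, was at 158, 22.4 and 7.47 in control, 173, 72.9 and 9.68 in Runx1KO and 2.72, 2.07 and 4.97 in RUNX1(41-214). Rag2, the partner of Rag1, was at 112, 40.7 and 30.9 in control and at 155, 70.9 and 28.1 in Runx1KO, and Cd79a, a B cell receptor signalling chain, at 57.9, 21.7 and 20.2 and at 271, 105.9 and 16.1. In RUNX1(41-214), Rag2 (24.7 to 54.5) and Cd79a (7.60 to 22.7) overlapped the control range. Ebf1 did not pass in RUNX1(41-214) minus Runx1KO (-1.96 ± 0.71, adjusted p = 0.305, 0.0440 to 0.703 over the alternatives). The summed signal of 6 B cell marker genes was 628 to 812 in control, 579 to 1035 in Runx1KO and 629 to 727 in RUNX1(41-214). Cd79b alone gave 431 to 689 on the 9 arrays (0.08 ± 0.20 with the fragment against control). The sum therefore says little about the dimmer genes of the list. The part of such cells in the Rag1 and Il7r values was not tested.

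**Figure D2:**
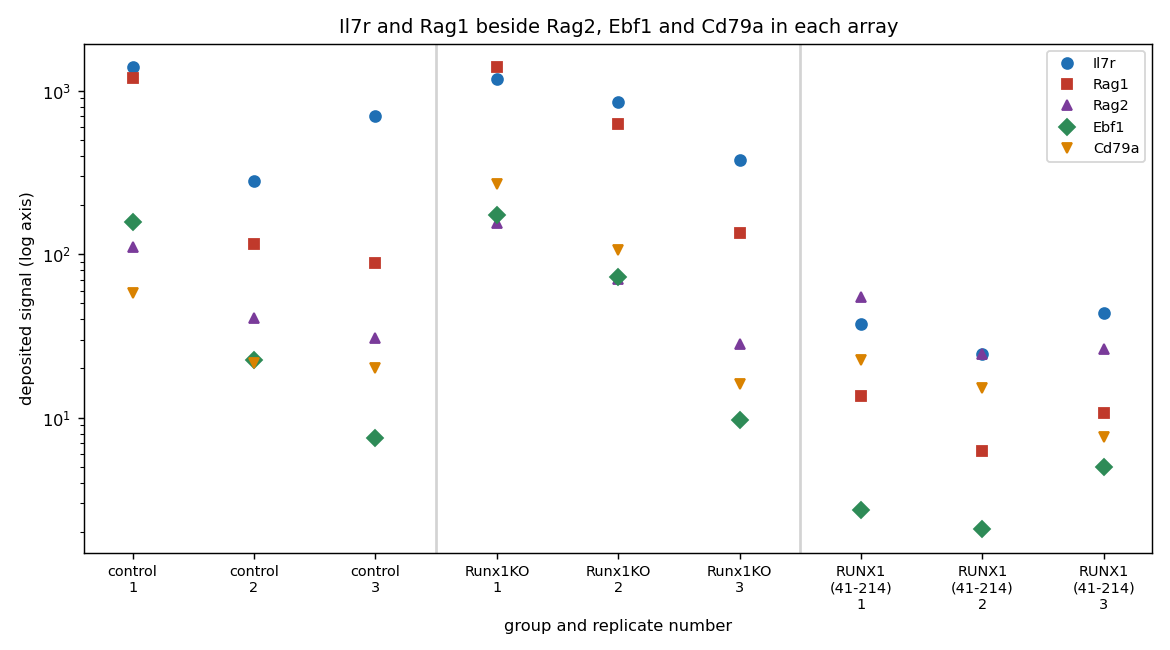
Deposited signal on a log axis (vertical) of Il7r, Rag1, Rag2, Ebf1 and Cd79a in each of the 9 arrays (horizontal). All 5 genes have their 3 highest points in control replicate 1 and Runx1KO replicates 1 and 2. Rag2 and Cd79a were chosen after their values were seen, so their place in this pattern does not test it. The fragment arrays are the lowest 3 for Il7r, Rag1 and Ebf1.

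Ltb and Cd52 encode surface proteins, and Lsp1 an actin-binding protein of the leukocyte cytoskeleton. Ltb, lymphotoxin beta, is the membrane anchor of the lymphotoxin heterotrimer. It was at 1834, 2516 and 1465 in control, 1347, 1969 and 1221 in Runx1KO and 1033, 715 and 728 in RUNX1(41-214), and the fragment group did not overlap the others. It was 2.30-fold lower in RUNX1(41-214) than in control (-1.20 ± 0.23, adjusted p = 0.0102), and the difference from Runx1KO did not pass (-0.84 ± 0.23, adjusted p = 0.131, 95% confidence interval -1.33 to -0.34). Cd52, a short glycoprotein held in the membrane by a lipid anchor and abundant on lymphocytes, went the other way. Its signal was 984, 844 and 939.8 in control, 1792, 1372 and 899 in Runx1KO and 1934, 2134 and 1843 in RUNX1(41-214). Every fragment array exceeded every other array, and the Runx1KO arrays ran from inside the control range to near the fragment group. Cd52 was 2.12-fold higher with the fragment than in control (1.08 ± 0.20, adjusted p = 0.00839). It was at 0.49 ± 0.20 in Runx1KO minus control (adjusted p = 0.579) and at 0.60 ± 0.20 in the direct comparison (adjusted p = 0.246). Without RUNX1(41-214) replicate 2, Ltb (adjusted p = 0.0543) and Cd52 (0.0504) fell just short, and they passed in the other 22 alternatives (adjusted p from 0.00670 and 0.00221). Without that array, 2 of the 10 genes passed against control, where 295 of 12393 genes did.

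Lsp1 was at 1328, 2106 and 1403 in control, 1258, 1649.6 and 747 in Runx1KO and 1158, 1023 and 983 in RUNX1(41-214). The fragment arrays lay below the control ones, but the difference did not pass (-0.58 ± 0.24, adjusted p = 0.267, interval -1.11 to -0.05). It was also at -0.45 ± 0.24 in Runx1KO minus control (adjusted p = 0.777), at 0.0088 without the 2 arrays of high Gapdh ratio, and at -0.13 ± 0.24 between the other 2 groups.

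The transcription factors of the set did not pass in any of the 3 comparisons, and their groups overlapped in each. Mef2c, a MADS-box factor that favours lymphoid over myeloid fate, was at 2929, 1741 and 2415 in control, 2405, 2060.1 and 2404 in Runx1KO and 2126, 2009.5 and 1779 in RUNX1(41-214). Its difference from control was -0.24 ± 0.18 with the fragment (95% confidence interval -0.63 to 0.15) and -0.03 ± 0.18 in Runx1KO (-0.43 to 0.36). The former was -0.46 without control replicate 2, with or without Runx1KO replicate 3 (adjusted p = 0.0993 and 0.0704), and -0.085 without control replicate 1. Satb1, an organiser of chromatin loops that promotes lymphoid potential in stem cells, was at 2076, 1302 and 2099, then 1856, 1585 and 2137, then 2082, 2039.7 and 1104, in the same order of groups. Its low arrays were control replicate 2 and RUNX1(41-214) replicate 3. The intervals were -0.68 to 0.46 for the fragment and -0.55 to 0.59 for Runx1KO, against control. Tcf3 encodes the E proteins E12 and E47, which open the B cell programme, and ranged from 509.8 to 1044 in control, from 559.95 to 1328 in Runx1KO and from 664 to 1211 in RUNX1(41-214). Its intervals against control were -0.68 to 0.82 and -0.60 to 0.90. For these 3 genes a change of -1.93, that of Dntt with the fragment, lies outside the intervals, and changes up to their bounds do not.

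Ikzf1, which encodes the zinc finger protein Ikaros, was represented by 1 probe set with signals of 10.7 to 34.9 on all 9 arrays, of the size of the offset. Its log2 fold change was 0.00 ± 0.21 with the fragment and 0.39 ± 0.21 in Runx1KO, against control (adjusted p = 1 and 0.786). At so low a signal a change of Ikzf1 mRNA was not detectable, and the value does not give its level. Among the relatives and inhibitors of the member factors 0 of 10 measured genes passed in any comparison. The Ikaros relative Ikzf4 was closest in Runx1KO minus control (0.55 ± 0.19, adjusted p = 0.431) and in RUNX1(41-214) minus Runx1KO (-0.65 ± 0.19, adjusted p = 0.180). Id2, which binds E proteins and keeps them off DNA, was at 211, 124 and 230.5 in control and at 82.0, 48.9 and 55.7 in RUNX1(41-214). Those arrays did not overlap, and Id2 missed the threshold (-1.27 ± 0.33, adjusted p = 0.0579, passed in 9 of 23 alternatives, range 0.0129 to 0.411). Of the NuRD chromatin remodelling complex, with which Ikaros associates, 0 of 10 genes passed. The histone deacetylase Hdac1 was at -0.36 ± 0.11 with the fragment and at -0.25 ± 0.11 in Runx1KO, against control (adjusted p = 0.125 and 0.688). The remodeller Chd4 was at -1.10 ± 0.42 in RUNX1(41-214) minus Runx1KO (adjusted p = 0.344), and passed in 2 of 23 alternatives, with array weights (-1.58, adjusted p = 0.0287) and without RUNX1(41-214) replicate 3 (-1.66, adjusted p = 0.0312).

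**Figure D3:**
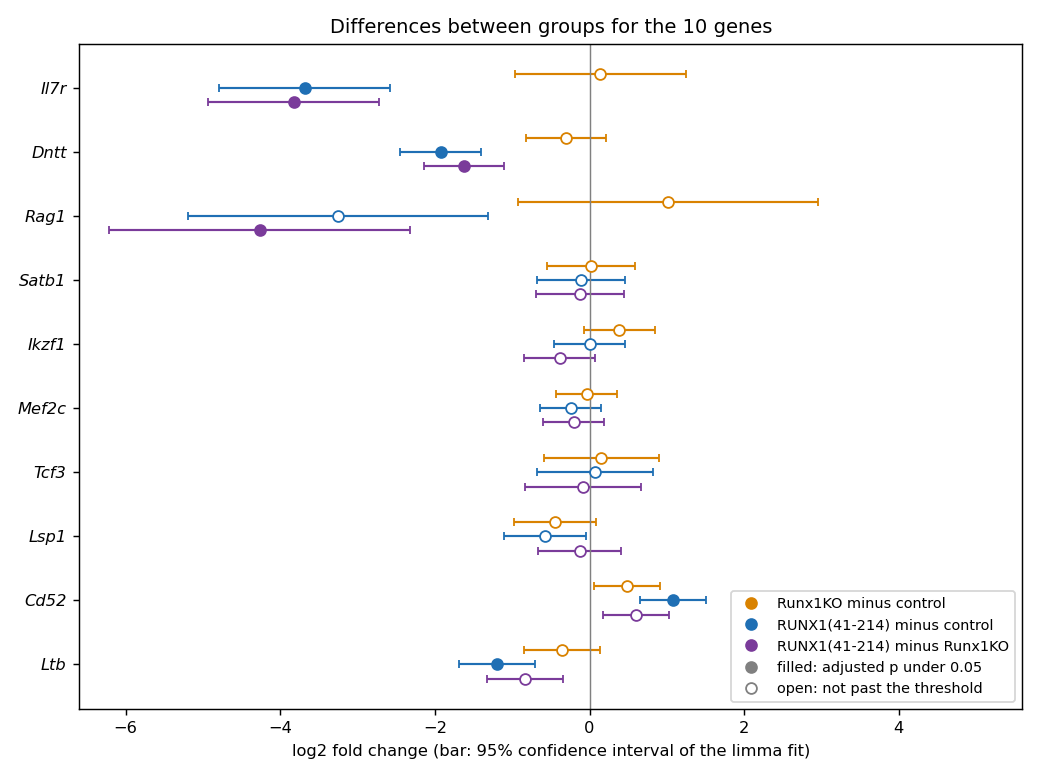
Log2 fold change (horizontal) with 95% confidence interval for each of the 10 genes (vertical) in the 3 comparisons, filled where the adjusted p was under 0.05. Il7r (-3.69 and -3.83) and Dntt (-1.93 and -1.62) are filled in both comparisons that involve RUNX1(41-214), and the Runx1KO minus control points are all open.

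A moderated F test over the 3 groups called 5 of the 10 genes (Dntt, adjusted p = 0.00151, Il7r 0.00164, Cd52 0.0242, Ltb 0.0264 and Rag1 0.0402), where 3.4% of all genes were called. The count was 3 without RUNX1(41-214) replicate 1 or control replicate 1, and 2 without RUNX1(41-214) replicate 2 or 3. The share of all genes called by the F test in those fits is not given here.

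Genes with several probe sets were compared across them. Both probe sets of Il7r fell (-3.69 and -3.28, adjusted p over all probe sets 0.00257 and 0.00697), and all 3 of Dntt did (-1.93, -2.48 and -2.14, adjusted p up to 0.0184), in RUNX1(41-214) minus control, where 3.05% of all probe sets passed. In the direct comparison with Runx1KO the dimmest Dntt probe set did not pass (-1.19, adjusted p = 0.326). The 5 probe sets of Mef2c did not share a sign with the fragment, from -0.28 to 0.53, nor did the 3 of Tcf3 (-0.03 to 0.09), and none of them passed. Satb1 had 3, at -0.11, -0.11 and -0.72, and none passed. In Runx1KO minus control no probe set of the 10 genes passed. There the dimmest of Dntt was at -0.95 ± 0.42 (adjusted p = 0.757) and 1 of Mef2c at -0.46 ± 0.23 (adjusted p = 0.803). Both lay outside the intervals of the brightest probe sets (-0.82 to 0.22 and -0.43 to 0.36). With the fragment, so did the Satb1 value of -0.72 (-0.68 to 0.46) and the Mef2c value of 0.53 (-0.63 to 0.15). Rag1, Ikzf1, Lsp1, Cd52 and Ltb had 1 each, so they have no second measurement on the array.

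**Figure D4:**
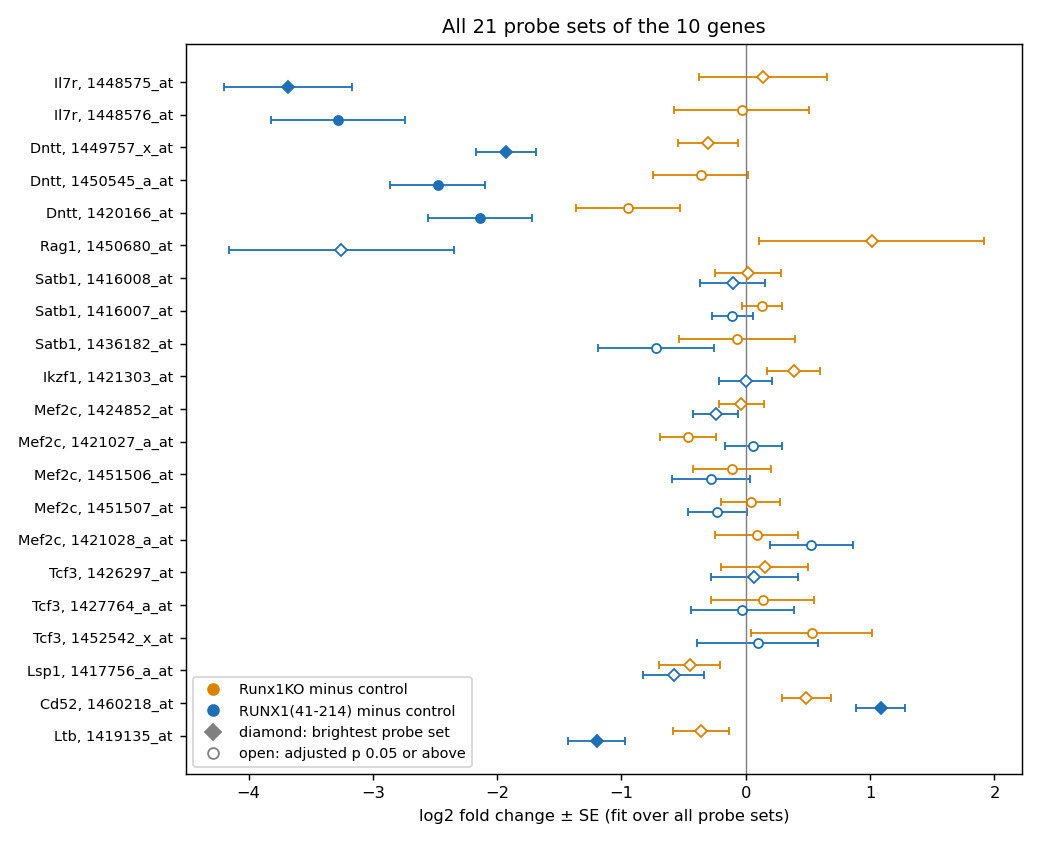
Log2 fold change ± SE (horizontal) of each of the 21 probe sets (vertical) in Runx1KO and in RUNX1(41-214), against control, filled where the adjusted p over all probe sets was under 0.05. The 2 probe sets of Il7r and the 3 of Dntt are filled and lie between -3.69 and -1.93 for RUNX1(41-214).

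Other genes of the pathway were taken from 7 lists arranged by role, with 74 of 85 genes measured. In RUNX1(41-214) minus control 2 rose and 4 fell (8.11% of the 74 against 4.28% of all genes), in Runx1KO minus control 1 rose and 1 fell (2.70% against 0.347%), and in RUNX1(41-214) minus Runx1KO 1 fell (1.35% against 1.36%). The medians of the 74 genes were -0.03, 0.09 and -0.12, beside 0.02, -0.00 and 0.02 over all genes. Without the 2 arrays of high Gapdh ratio 10 passed in RUNX1(41-214) minus control, in a fit whose share of all genes is not given here. Without RUNX1(41-214) replicate 1 there were 3, where 299 of 12393 genes passed. The count in Runx1KO minus control was 0 without any 1 of 5 arrays (control replicates 1 and 3, Runx1KO replicates 1 and 3, RUNX1(41-214) replicate 1).

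Of the 10 surface and homing genes of lymphoid-primed progenitors, 3 fell and 1 rose with the fragment. Notch1, the receptor that directs progenitors to the T cell lineage, was at 2846, 1938 and 2276 in control, 1961, 1695 and 1671 in Runx1KO and 779, 759 and 634 in RUNX1(41-214). It is the pathway gene that also passed against Runx1KO (-1.67 ± 0.16 from control, adjusted p = 0.000157, and -1.26 ± 0.16 from Runx1KO, adjusted p = 0.00308), in all 23 alternatives each. Ccr9, a chemokine receptor for homing to the thymus, was lower than control in both groups (-2.18 ± 0.29 with the fragment and -1.74 ± 0.29 in Runx1KO). Cd48, a surface receptor gained as stem cells differentiate, was higher in both (1.36 ± 0.16 and 1.01 ± 0.16). In Runx1KO the call of Ccr9 was lost in 12 of 23 alternatives (adjusted p up to 0.137), among them those without any of 7 arrays, all but control replicate 2 and RUNX1(41-214) replicate 2. That of Cd48 was lost in 10 (up to 0.126), among them those without control replicate 1 or 3, Runx1KO replicate 1 or 3 or RUNX1(41-214) replicate 1 or 2. With the fragment neither call was lost. Ccr7, another homing receptor, fell with the fragment from low signals (-1.47 ± 0.35, adjusted p = 0.0375). That call was lost in 9 of 22 alternatives (up to 0.149), among them those without control replicate 1 or any array of the fragment group.

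Of 11 measured genes of interleukin 7 and Flt3 signalling, 1 rose and 1 fell with the fragment, and 0 passed in the other 2 comparisons. Stat5a, which carries the interleukin 7 signal to the nucleus, was at 474, 521 and 560.4 in control, 634, 574 and 712 in Runx1KO and 1032, 904 and 978 in RUNX1(41-214). It rose by 0.91 ± 0.17 (adjusted p = 0.0111, 0.0720 without RUNX1(41-214) replicate 1 and 0.00473 to 0.0720 over all alternatives). Bcl2, a survival factor that interleukin 7 sustains in lymphocytes, was at 384, 256 and 314 in control and at 51.5, 78.8 and 205 with the fragment (-1.46 ± 0.35, adjusted p = 0.0367). The call was lost in 9 of 23 alternatives (up to 0.157), among them those without control replicate 1 or 3, Runx1KO replicate 1 or 2 or RUNX1(41-214) replicate 1 or 2. It was at -1.25 ± 0.35 in Runx1KO, which did not pass (adjusted p = 0.237). Flt3, the receptor that marks lymphoid-primed cells, is outside the naming rule and was picked with its values known. It was at 2071, 1944 and 1506 in control and 1405, 1193 and 1027 with the fragment. Those arrays did not overlap, and the difference did not pass (-0.60 ± 0.20, adjusted p = 0.156). Cish, a feedback inhibitor of cytokine signalling, was at -0.93 ± 0.23 in RUNX1(41-214) minus Runx1KO (adjusted p = 0.0816).

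In the other 3 lists 0 genes passed in any of the 3 comparisons: 9 measured genes of V(D)J recombination and end joining, 15 lymphoid transcription factors and 9 of the lymphotoxin pathway. Xrcc6, the Ku70 subunit that binds broken DNA ends, came closest, at -0.70 ± 0.18 with the fragment against control (adjusted p = 0.0565, passed in 6 of 23 alternatives, range 0.0290 to 0.348). The polymerase Polm was at 0.79 ± 0.21 in Runx1KO minus control (adjusted p = 0.207) and the end-joining kinase Prkdc at 0.55 ± 0.21 in RUNX1(41-214) minus Runx1KO (adjusted p = 0.360). Of the lymphoid transcription factors, the lowest p in Runx1KO minus control was that of Foxo1 (0.59 ± 0.20, adjusted p = 0.418), a factor upstream of Il7r and the Rag genes. With the fragment Pax5, the B cell identity factor, was at 0.38 ± 0.14 from signals near background (adjusted p = 0.184). Of the lymphotoxin pathway, the adaptor Traf2 was at -0.29 ± 0.18 and -0.33 ± 0.18 against control, and the receptor Tnfrsf14 at -1.61 ± 0.68 in the direct comparison (adjusted p = 0.410).

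**Figure D5:**
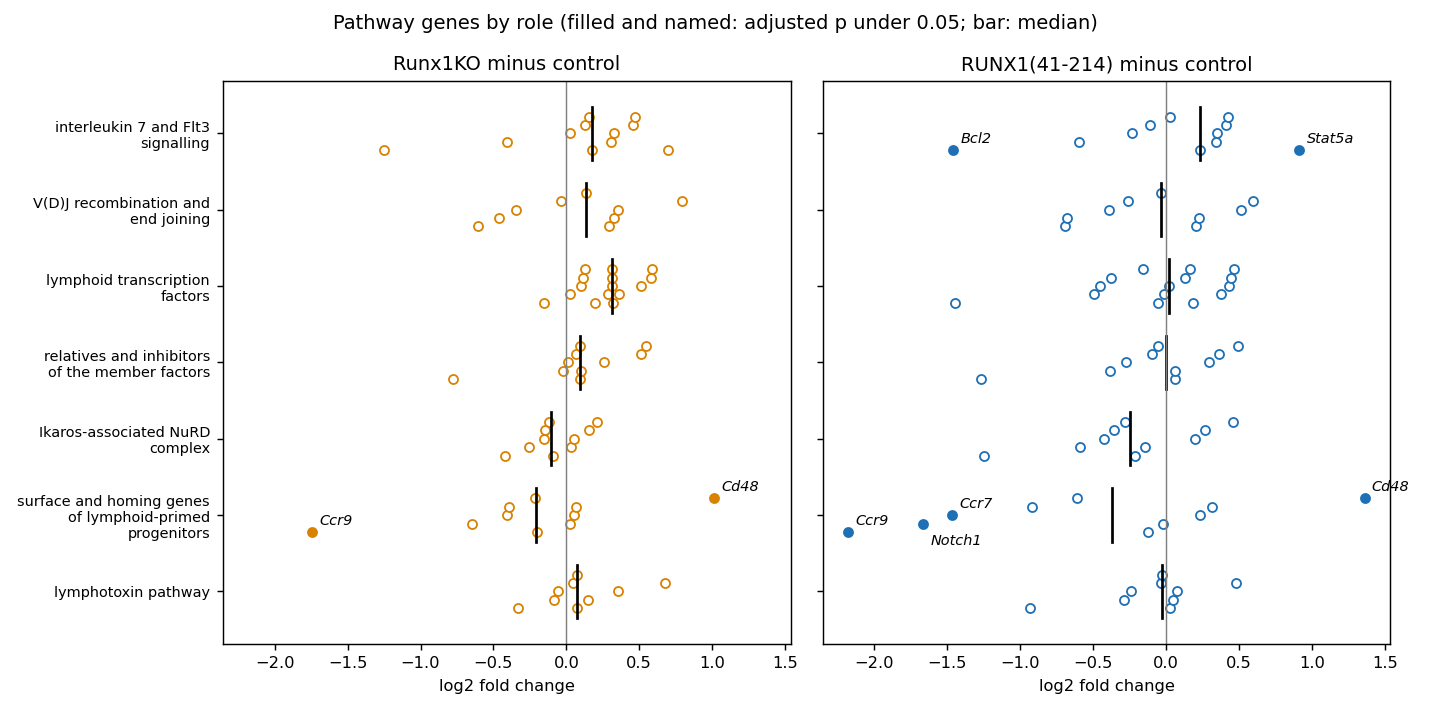
Log2 fold change (horizontal) of 74 genes in 7 lists by role (vertical) for Runx1KO and for RUNX1(41-214), against control, filled and named where the adjusted p was under 0.05, with bars for list medians. The called genes lie in the surface and homing list and, for the fragment, also in interleukin 7 and Flt3 signalling (Stat5a at 0.91 and Bcl2 at -1.46).

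Markers of other cell types moved beside these values. The summed signal of 6 NK cell markers was 1150.0 to 1483 in control, 533 to 1179 in Runx1KO and 312 to 427 in RUNX1(41-214). Nkg7 alone gave 942 to 1243, 369 to 931 and 120 to 250 of it. Against control, 4 of the 6 were lower and 2 higher in value with the fragment. Nkg7 (-2.43 ± 0.34) and Gzma (-0.99 ± 0.22) fell, and Klrd1, the next brightest, was at -0.39 ± 0.39 (adjusted p = 0.719). Prf1 was at 0.36 ± 0.19 (adjusted p = 0.424), its fragment arrays above those of both other groups. Ncr1, which defines NK cells, was at 2.85 to 20.02 in signal. Gzma lost its call in 6 of 23 alternatives (adjusted p up to 0.126), without control replicate 1 or 3 or any array of the fragment group among them, and Nkg7 in none. The sum of 9 T cell markers was 341 to 385 in control, 225 to 320.1 in Runx1KO and 204 to 260 in RUNX1(41-214). Against control, Cd247 (-1.15 ± 0.22) and Thy1 (-1.07 ± 0.27) were lower with the fragment, while 3 of the 9 were higher in value. Of those, Cd8a was at 0.66 ± 0.22 (adjusted p = 0.152), its fragment arrays above those of both other groups. Thy1 lost its call in 13 alternatives, without any single array but Runx1KO replicate 3 and RUNX1(41-214) replicate 3 among them (up to 0.214), and Cd247 in 4, with control replicate 1 or RUNX1(41-214) replicate 2 or 3 left out or with its probe sets averaged (up to 0.205). The dendritic cell list summed to 350.2 to 376, 160 to 341 and 403 to 509, with Itgax lower (-1.39 ± 0.22, adjusted p = 0.00400) with the fragment than in control. In that comparison Bst2, its brightest gene, was at 1.18 ± 0.37 and Cd209a at 0.52 ± 0.16, and the fragment arrays lay above the control ones, but neither passed (adjusted p = 0.115 and 0.110). The megakaryocyte and platelet list, of 8 genes, summed to 3322 to 4650.5 in control, 6372 to 8067 in Runx1KO and 9387 to 12212 in RUNX1(41-214). Of these 8 genes 3 rose in Runx1KO and the same 3 with the fragment, against control, where 0.234% and 1.73% of all genes rose. They were the surface receptor Treml1 (2.67 ± 0.22 and 3.38 ± 0.22), the platelet glycoprotein Gp5 (2.08 ± 0.19 and 2.43 ± 0.19) and the integrin Itga2b (1.29 ± 0.15 and 2.02 ± 0.15). Adjusted p was 0.00426 or below in Runx1KO and 4.22e-05 or below with the fragment, and of these calls that of Itga2b in Runx1KO was lost in 1 alternative, with only the groups compared (0.0716). Itga2b was also higher with the fragment than in Runx1KO (0.74 ± 0.15, adjusted p = 0.0372), a call lost in 12 of 23 alternatives, among them those without any single array but control replicate 2 and Runx1KO replicate 2. Pf4, the other bright gene of the list, was at -0.07 ± 0.27 and 0.76 ± 0.27 against control (adjusted p = 0.989 and 0.169). Vwf was at -0.12 ± 0.36 and -0.72 ± 0.36 (adjusted p = 0.986 and 0.372), and its fragment arrays lay below those of Runx1KO. In value, 3 of the 8 genes were lower than control in Runx1KO and 1 with the fragment. The summed signals of the granulocyte and monocyte list overlapped in all 3 groups (5993 to 9292, 7143 to 10726 and 7286 to 9738). Mpo (4090.3 to 7015) and Lyz2 (1128 to 1682) led that list. Against control, 6 of its 8 genes were higher and 2 lower in value with the fragment, and 0 passed. Elane was at 1.77 ± 0.64 (adjusted p = 0.182), its fragment arrays above the control ones. The sums of the erythroid list also overlapped (303 to 2196, 288 to 869 and 631 to 1558). Its Alas2 (2.20 ± 0.41) and Slc4a1 (2.91 ± 0.55) nevertheless rose with the fragment against control. Those calls were lost without control replicate 3 or RUNX1(41-214) replicate 2 (adjusted p up to 0.0592). Both genes also exceeded Runx1KO (2.32 ± 0.41 and 2.86 ± 0.55), calls lost in 7 and 8 alternatives. Klf1 and Epor, its brightest genes, were at -0.82 ± 0.87 and -0.22 ± 0.63 with the fragment against control (adjusted p = 0.739 and 0.921). The part of these cell types in the values of the 10 genes was not tested. Kit was higher with the fragment than in control (0.57 ± 0.14, adjusted p = 0.0415), a call lost in 12 of 23 alternatives, among them those without control replicate 2 or 3, Runx1KO replicate 1 or RUNX1(41-214) replicate 1 or 2.

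The genes most like Il7r and Dntt in their course over the 9 arrays were found by the root mean square difference of log2 values centred on the control mean, among genes above the median signal. For Il7r they were the sialyltransferase St6gal1 (0.71), the immunoglobulin heavy chain gene Ighm (0.74), the nuclear receptor Hnf4a (0.93), the membrane protein gene Emp1 (0.95) and Bex1 (0.98). Their log2 fold changes with the fragment ran from -3.99 for Bex1 to -2.76 for Emp1. For Dntt they were Epb41l4b and the calponin Cnn3 (0.33 each), the cyclophilin Ppic (0.35), Notch1 (0.35) and Fgd2 (0.38), with changes from -1.92 to -1.65. The likeness to Il7r or Dntt fixed these falls, so they are given without a test. With its probe sets averaged, Ighm was at -0.52.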

How the data were processed

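RNA of sorted KSL cells was amplified and biotin-labelled by the Affymetrix procedure, per the labels' protocols. For each of 22690 probe sets the authors deposited 1 linear signal intensity per array (0.53 to 20215). How they summarised and scaled the probes: not given in the sources used here. Setting aside 64 control probe sets, log2(signal + 16) was taken, which understates changes of dim genes. Array medians then spanned 0.211, above a limit of 0.2, and the arrays were quantile normalized. Gene names came from the platform annotation: 20380 probe sets had 1 symbol, 691 several and 1555 none. Each gene took its brightest probe set by mean. All 9 arrays were fitted with limma 3.58.1 (R 4.3.3, lmFit, then eBayes with a trend, 6 residual degrees of freedom), two-sided, with Benjamini-Hochberg adjustment over 12393 genes and a threshold of 0.05. The median standard error was 0.20, and 3 arrays a group limit the precision. The script was tested on simulated data.

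The members and the lists were chosen with earlier results of these data known. Named genes are all members and, per pathway list and comparison, up to 4 called genes or the 1 of lowest p. Per marker list they are the 2 brightest and those called. Defining markers and others chosen after their values were seen were added (Cd3e, Cd4, Ms4a1, Cd22, Ncr1, Cd209a, Cd8a, Prf1, Vwf and Elane). The 5 genes most like Il7r and Dntt are also named. Alternatives concerned normalization, offset, dim genes, probe sets, weights, variance prior, minimum fold, replicate block, RNA quality, groups fitted and omission of arrays.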

Additional observations from a re-analysis of the deposited data

How the results depend on the processing

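Across the 23 alternatives the calls of Il7r and Dntt in both comparisons with RUNX1(41-214) were kept. The dimmest probe set of Dntt, taken alone, did not pass against Runx1KO (-1.19, adjusted p over all probe sets 0.326). The members called with the fragment against control numbered 2 to 5 when single arrays were left out, and those against Runx1KO 2 to 3. Those by the F test numbered 2 to 5, in fits whose F test counts of all genes are not given here. Those in Runx1KO minus control were 0 throughout. Of all genes, RUNX1(41-214) minus Runx1KO called 168 (74 to 208 without single arrays, 107 with the Gapdh ratio as covariate, 371 with array weights, 90 with a minimum fold of 1.2), RUNX1(41-214) minus control 531 (295 to 613, and 294 with the minimum fold), and Runx1KO minus control 43 (14 to 51, 24 with all probe sets tested, 18 with the minimum fold, 9 with only the groups compared, 65 without dim genes). Pathway genes called were 1 (1 to 2, and 4 with array weights), 6 (3 to 8, 3 with the minimum fold, 10 without both arrays of high Gapdh ratio) and 2 (0 to 2). The last count was 1 with all probe sets tested, with mean probe sets, with no variance trend, with the replicate block and without both Gapdh arrays, and 0 with the minimum fold or only the groups compared. The cause was not tested, except that a minimum fold is a stricter test.

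With the replicate number as a block, all genes called were 171, 539 and 48, and members 3, 5 and 0, in the same order, Rag1 being the added member. Of 9 pairs of arrays with the same number, 3 correlated above 0.1 (-0.17 to 0.42). Between control and Runx1KO the pairs of the same number were at 0.03, 0.41 and 0.42, and the others ran from -0.47 to 0.14. With 3 arrays a group, these correlations cannot decide whether the numbers pair the samples.

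Signs turned for uncalled values. Ikzf1 with the fragment against control was at -0.076 with the Gapdh covariate, -0.030 without quantile normalization, -0.018 with an offset of 1, -0.083 without both Gapdh arrays, and -0.20 to 0.15 without single arrays. Without both Gapdh arrays Runx1KO minus control was at -0.038 for Il7r (-0.46 to 0.68 without single arrays), 0.0088 for Lsp1 and -0.36 for Satb1 (-0.21 to 0.15, and -0.073 with array weights). For Mef2c it was 0.0017 with median centring (-0.25 to 0.12), and for Tcf3 -0.17 to 0.44. RUNX1(41-214) minus Runx1KO was at 0.063 for Mef2c with mean probe sets, at 0.044 for Satb1 with array weights and 0.019 without both Gapdh arrays (-0.27 to 0.17), at -0.39 to 0.10 for Lsp1 and at -0.37 to 0.18 for Tcf3. RUNX1(41-214) minus control was at 0.041 for Satb1 with median centring (-0.34 to 0.18) and at -0.051 for Tcf3 with the Gapdh covariate (-0.25 to 0.26). Signals near the offset limit Ikzf1 on all arrays, and Il7r, Rag1 and Ebf1 with the fragment.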
